A study of Mus musculus with 18 samples.

Results

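The data described here are the transcript counts of 9 chemokine receptor genes, Ccr1, Ccr2, Ccr3, Ccr7, Cx3cr1, Cxcr2, Cxcr4, Ccrl2 and Ackr3. The members were taken by symbol, and each was found once among the 53465 genes of the count table. Adult female C57BL/6J mice, aged 8 to 10 weeks, received a contusion of the thoracic spinal cord (spinal cord injury, SCI) and, 48 h later, a single injection into the cord of PBS, 100 ng of IL-13 or 100 ng of IL-4. At 24 h after the injection, microglia (CD45low CD11b+ F4/80+) and macrophages (CD45high CD11b+ F4/80+) were sorted from the same cords and sequenced with SMART-seq2, a PCR-amplified poly-A protocol made for small cell numbers. There were 9 mice, 3 for each injection, and thus 18 libraries in 6 groups, and the labels name no genetic alteration. All groups, PBS included, had the injury and the intraspinal needle. The sort separates the cell types by surface level of CD45 and not by origin, so that a cell that changes this level can pass from one gate to the other.

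Chemokines are small secreted proteins that guide leukocyte migration, and their receptors are membrane proteins with a heptahelical fold that signal through inhibitory G proteins. CC, CXC and CX3C receptors are named after the cysteine pattern of their ligands. Atypical receptors bind chemokines, or the protein chemerin, without this G protein signal, and take up or present the ligand. In the nervous system, microglia are known for high Cx3cr1, while Ccr2 is the receptor by which inflammatory monocytes leave the bone marrow and enter injured tissue.

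On chromosome 9 of GRCm38 lie 5 of the members, on chromosome 1 lie 3, and Ccr7 is on chromosome 11. Ccr1, Ccr3 and Ccr2 belong to a cluster of CC receptor genes. Genes of this cluster resemble each other in sequence, and RSEM, which made the counts, assigns a read with several matching genes in part to each, so that the split of low counts among these neighbours is uncertain.

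The total count per library was between 35961305 and 45849829. In the libraries labelled microglia, all 10 genes on a list of microglia markers were called higher than in macrophages with PBS, and 9 of 10 monocyte and macrophage markers were lower. The same microglia libraries also held transcripts of other cells. The summed level of 8 endothelial markers was between 961 and 3793 TPM (a share of all transcripts, corrected for gene length) in microglia libraries and between 16.6 and 139 in macrophage libraries. That of 10 fibroblast and pericyte markers was between 67.6 and 3479 TPM in microglia and between 0.0908 and 3.43 in macrophages. Neutrophil markers were summed to between 606 and 9176 TPM in macrophage libraries and between 119.6 and 814 in microglia libraries. Both IL-13 libraries of mouse 6 stood apart. Its microglia held the 3479 TPM of fibroblast and pericyte markers, and its macrophages the 9176 TPM of neutrophil markers. Mitochondrially encoded transcripts took between 6.35 and 12.2% of the counts in IL-4 microglia, between 3.28 and 3.53% in IL-13 microglia and between 2.18 and 3.01% in PBS microglia. In macrophages they took between 0.836 and 1.41% with IL-4, between 0.604 and 0.713% with IL-13 and between 0.532 and 0.745% with PBS. Genes with a count numbered 15193 to 15626 in IL-4 microglia and 17620 to 18371 in PBS microglia. The part of these differences in the results with IL-4 was not tested. In such bulk libraries, fewer cells of a type and less RNA per cell cannot be told apart. Levels below are counts divided by size factors over all 18 libraries (normalized counts, mean ± SD, n = 3 mice). Fold changes and adjusted p-values are from edgeR's quasi-likelihood test, with an adjusted p of 0.05 over all genes tested as the threshold for a DE (differentially expressed) gene. Comparisons of levels between genes use TPM.

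**Figure D1:**
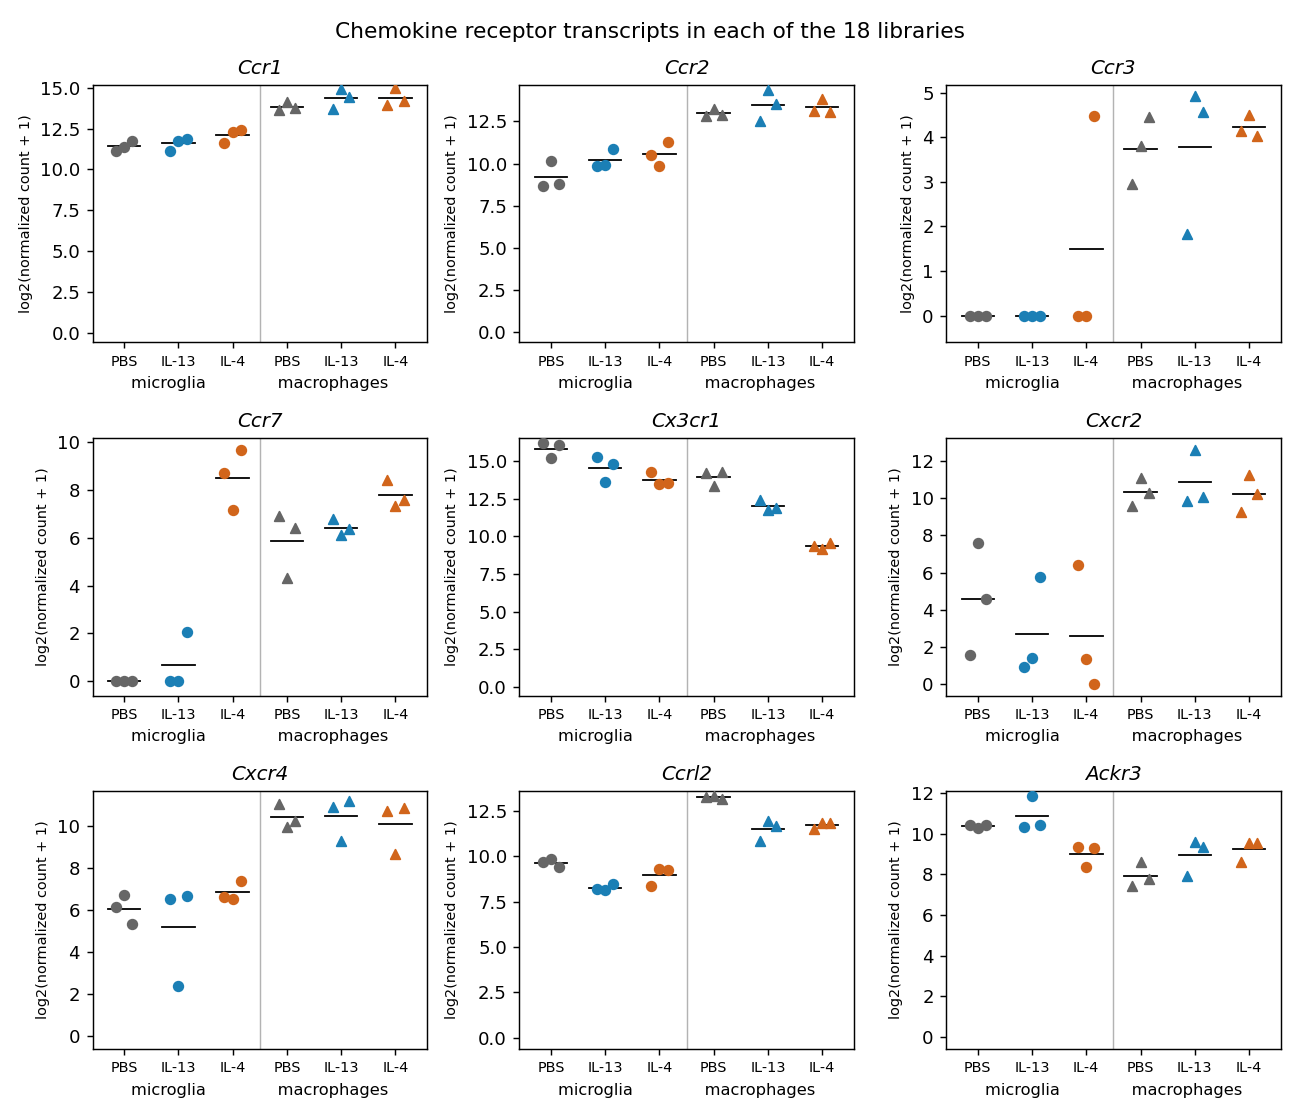
Level of each receptor gene in every library, as log2(normalized count + 1), by injection, with microglia as circles and macrophages as triangles; horizontal lines are means of the 3 plotted values. Cx3cr1 was lower on average with each cytokine than with PBS in both cell types, Ccr7 was at 0 in the 3 PBS microglia libraries and between 142 and 823 normalized counts with IL-4, and Ccrl2 was highest in PBS macrophages.

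Of the 8 receptor genes tested in microglia, 2 were DE with IL-4 against PBS, Ccr7 higher and Cx3cr1 lower, where 2.22% of all 15566 genes tested were DE. Ccr7 passed the filter on low counts there through the IL-4 libraries alone and had to differ, so this count is a description. With IL-13 against PBS, 0 of 8 were DE by edgeR, where the share of all genes was 0.366%. Cx3cr1 and Ccrl2, both lower, had an unadjusted p under 0.05 there, as did 7.76% of all genes, and DESeq2 called Ccrl2. Between IL-4 and IL-13 in microglia, 0 of 8 were DE by edgeR and the share of all genes was 0.0385%. Ccr7, Ccrl2 and Ackr3 had an unadjusted p under 0.05 in that comparison, as did 11.4% of all genes, and DESeq2 called Ccr7 and Ackr3. In macrophages, all 9 were tested. Cx3cr1 and Ccrl2 were DE and lower with IL-4 against PBS, where 14% of all 13606 genes were DE. The same pair was DE and lower with IL-13 against PBS, where 4.19% of all genes were DE. Cx3cr1 alone was DE between IL-4 and IL-13 in macrophages, where the share of all genes was 0.25%. In macrophages, 2 of 9 with IL-4 is thus close to the share over all genes, and these counts are small in every comparison. Both cytokines were compared with the same PBS libraries, so that their values against PBS are not independent of each other.

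**Figure D2:**
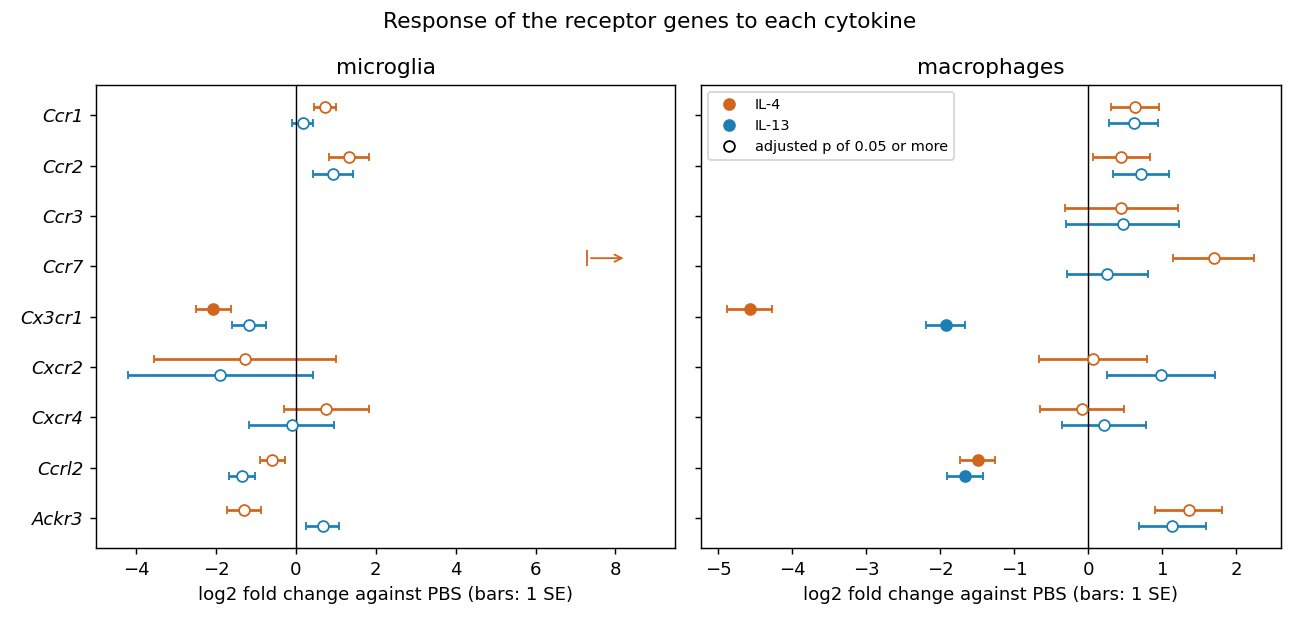
Log2 fold change of each receptor gene with IL-4 or IL-13 against PBS in microglia and in macrophages, with bars of 1 SE; filled points are DE. The arrow for Ccr7 in IL-4 microglia starts at the lower bound of 157-fold, and no fold is drawn for Ccr3 in microglia or for Ccr7 in IL-13 microglia; Cx3cr1 and Ccrl2 lie to the left of 0 in both panels.

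Cx3cr1 (ENSMUSG00000052336.7, chromosome 9 from 119901616 to 120069879, minus strand) encodes the receptor for fractalkine, a chemokine that neurons carry on their membrane. The 3 PBS microglia libraries had 75299, 38610.0 and 70947 normalized counts of Cx3cr1, and the IL-13 microglia had 39618, 12879.7 and 28824. In IL-4 microglia, the values were 19627, 11591 and 11963. Every IL-4 library was below every PBS library, and the ranges of IL-13 and PBS overlapped. Cx3cr1 was thus 61619 ± 20045 with PBS, 27107 ± 13452 with IL-13 and 14394 ± 4536 with IL-4. Against PBS, it was 4.19-fold lower with IL-4, a log2 fold change of -2.07 (SE 0.43, adjusted p = 0.0444). With IL-13 the log2 fold change was -1.17 (SE 0.42, adjusted p = 0.534). The call with IL-4 was lost when any of PBS mice 1, 2 and 3, IL-4 mice 8, 9 and 10 or IL-13 mouse 7 was left out, with adjusted p up to 0.169 and log2 fold changes between -2.36 and -1.90.

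In macrophages, Cx3cr1 fell with both cytokines. The PBS libraries had 18752, 10384 and 20324 normalized counts, the IL-13 libraries 5489, 3427 and 3783, and the IL-4 libraries 656, 581 and 758. None of the 3 groups overlapped another. Cx3cr1 was 23.9-fold lower with IL-4 than with PBS, with a log2 fold change of -4.58 (SE 0.30, adjusted p = 1.87e-05), and this call held when any single mouse was left out. With IL-13 it was 3.80-fold lower, at -1.93 (SE 0.27, adjusted p = 0.00369), a call that also held without any single mouse. IL-4 was 6.28-fold below IL-13, at -2.65 (SE 0.27, adjusted p = 0.0122). That last call was lost without IL-4 mouse 8 or 9, with adjusted p up to 0.0586. The response to IL-4 was larger in macrophages than in microglia by 2.49 on the log2 scale (SE 0.53, adjusted p = 0.0374 for the difference between cell types). This difference was called for 2 of the 9 members, Cx3cr1 and Ccr7, and for 0.992% of all 16535 genes, and for Ccr7 it rests on a group at 0 counts. For Cx3cr1 it was not called without PBS mouse 1, 2 or 3, IL-4 mouse 8, 9 or 10 or IL-13 mouse 7, with adjusted p up to 0.191. For IL-13 against PBS the difference was 0.76 (SE 0.52, adjusted p = 1).

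Markers of microglia moved with Cx3cr1. The summed level of the 10 microglia markers, which do not include Cx3cr1, was between 7157 and 12081 TPM in PBS microglia, between 3538 and 7884 with IL-13 and between 2753 and 3925 with IL-4. The macrophage libraries held 2840 to 4434 TPM of these markers after PBS, 1084 to 2184 after IL-13 and 523 to 1002 after IL-4. With IL-4 against PBS, 10 of these 10 markers were called lower in macrophages and 4 of 10 in microglia. With IL-13, 3 of 10 were called lower in macrophages and 0 of 10 in microglia by edgeR, where 6 of 10 had an unadjusted p under 0.05. Their part in the fall of Cx3cr1 was not tested. As a ratio chosen after these values were seen, the TPM of Cx3cr1 was between 8.95 and 10.4% of the marker sum in PBS microglia, between 6.13 and 7.55% with IL-13 and between 5.35 and 5.99% with IL-4. In macrophages, the ratio ranged from 4.85 to 6.79% after PBS, from 2.96 to 3.77% after IL-13 and from 0.934 to 1.49% after IL-4. Within each cell type, the ranges of this ratio did not overlap, with PBS highest and IL-4 lowest.

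**Figure D3:**
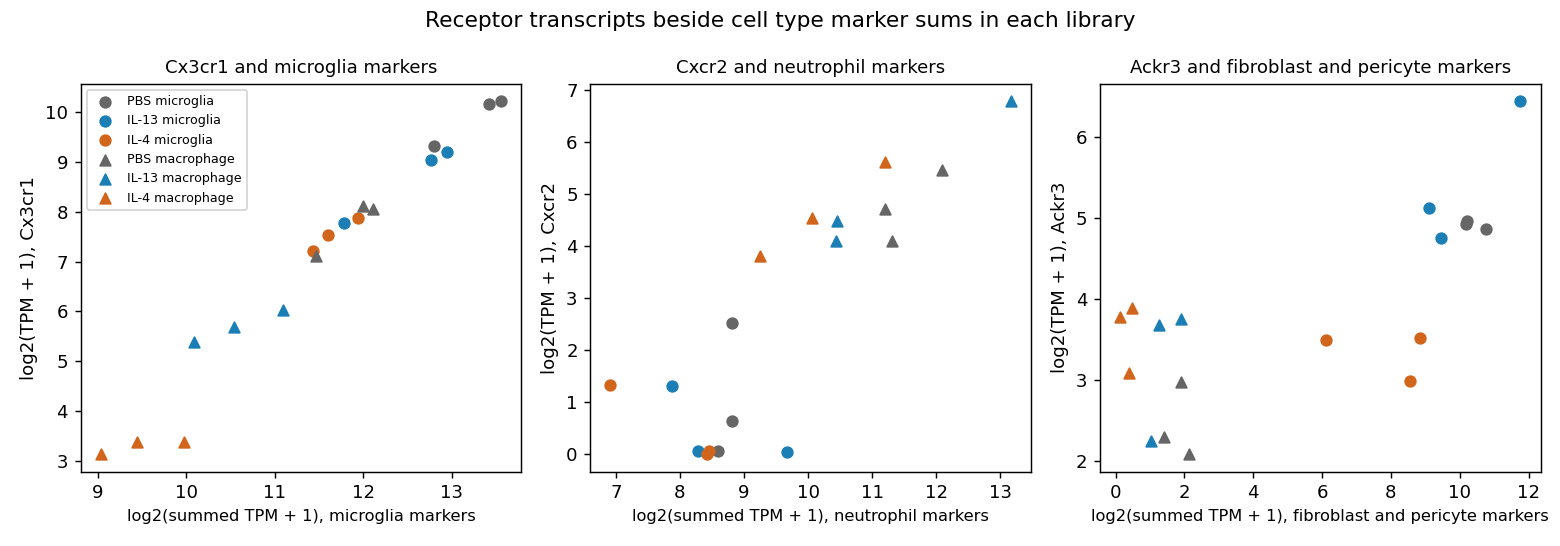
Level of Cx3cr1, Cxcr2 and Ackr3 in each library against the summed level of microglia, neutrophil, and fibroblast and pericyte markers, all as log2(TPM + 1), with microglia as circles and macrophages as triangles. Cx3cr1 and the microglia markers descended together from PBS microglia to IL-4 macrophages, the IL-13 macrophages of mouse 6 were highest in Cxcr2 and neutrophil markers, and the IL-13 microglia of mouse 6 were highest in Ackr3 and in fibroblast and pericyte markers.

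Ccr2 (ENSMUSG00000049103.14, chromosome 9 from 124101950 to 124113557, plus strand), the monocyte receptor for Ccl2 and related chemokines, was not DE with either cytokine in either cell type. PBS microglia had 411, 1142 and 438 normalized counts, IL-13 microglia 939, 959 and 1857, and IL-4 microglia 1480.4, 914 and 2481. The PBS library of mouse 2 lay within the range of both cytokine groups. The log2 fold change in microglia was 1.33 with IL-4 (SE 0.50, adjusted p = 0.229, and 1.96 without PBS mouse 2) and 0.93 with IL-13 (SE 0.50, adjusted p = 0.779). In macrophages, Ccr2 was 8134 ± 1311 with PBS, 13131 ± 7750.2 with IL-13 and 10707 ± 3435 with IL-4, and the groups overlapped. The ratio of Cx3cr1 to Ccr2 per length had a median of 243 in PBS microglia, 23.3 in IL-13 microglia and 19.0 in IL-4 microglia. In macrophages, the median ratio was 3.91 with PBS, 0.470 with IL-13 and 0.113 with IL-4. In PBS macrophages Cx3cr1 was therefore the more abundant transcript of the pair, and in IL-4 macrophages Ccr2 was, by the medians and in each of the 3 libraries of each group.

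Ccr1 (ENSMUSG00000025804.5, chromosome 9 from 123962124 to 123968692, minus strand), a receptor for Ccl3, Ccl5 and other inflammatory CC chemokines, was the most abundant member in macrophages. It had 2271, 2693 and 3438 normalized counts in PBS microglia, 2276, 3405 and 3743 with IL-13 and 3093, 5089.6 and 5502 with IL-4. Of the IL-4 libraries, that of mouse 8 lay within the PBS range, as did the IL-13 libraries of mice 5 and 6. The log2 fold change with IL-4 was 0.74 (SE 0.27, adjusted p = 0.215). In macrophages, Ccr1 was 14817 ± 2474 with PBS, 22242 ± 8830.4 with IL-13 and 22206 ± 8869.5 with IL-4, with fold changes of 0.61 (SE 0.33) and 0.63 (SE 0.33) on the log2 scale and overlapping groups.

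Ccr7 (ENSMUSG00000037944.8, chromosome 11 from 99144196 to 99155077, minus strand), the receptor for Ccl19 and Ccl21 that guides dendritic cells and lymphocytes to lymph nodes, was found in IL-4 microglia and was nearly absent from the other microglia. No count of it was found in the 3 PBS microglia libraries. In IL-13 microglia, mice 5 and 6 had 0 counts and mouse 7 had 4. The IL-4 microglia had 417, 186 and 770 counts, or 413, 142 and 823 normalized counts. Taking 3 counts per library as the limit that 0 allows, Ccr7 was at least 157-fold higher with IL-4 than with PBS in microglia (adjusted p = 0.0282), and this bound covers counting error only. Without IL-4 mouse 10, the bound was 95.0-fold. The call was lost without PBS mouse 1, 2 or 3 and without IL-4 mouse 8 or 10, with adjusted p up to 0.104. Between IL-4 and IL-13, the adjusted p was 0.156, and DESeq2 gave 2.85e-08. Ccr7 entered both of these tests through the IL-4 libraries alone, so the counts per library carry the result and the p-values describe it.

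In macrophages, Ccr7 was present in every library. The values were 119.7, 18.8 and 84.1 normalized counts with PBS, 108, 69.0 and 82.5 with IL-13, and 340.4, 161 and 193 with IL-4. The 3 IL-4 libraries were above the 6 others. The log2 fold change with IL-4 against PBS was 1.70 (SE 0.55, adjusted p = 0.0656), and DESeq2 called it (adjusted p = 0.0117). The difference between the cell types in the response of Ccr7 to IL-4 was called (adjusted p = 0.0144), but it rests on the 0 counts of all 3 PBS microglia libraries and describes the values above. That call was lost without PBS mouse 1 or 3 or IL-4 mouse 10, with adjusted p up to 0.104. In macrophages, the 8 dendritic cell markers summed to between 8.94 and 23.2 TPM with IL-4 and between 11.8 and 24.9 with PBS, with 2 called higher and 1 lower and a median log2 fold change of 0.52. Of the 10 lymphocyte markers, 2 were tested there and 1 was called higher, while Cd3e was at 0 in the IL-4 macrophages. The summed level of the dendritic cell markers in microglia was between 29.3 and 35.5 TPM with IL-4 and between 48.4 and 88.7 with PBS, and 0 of the 6 tested were called by edgeR, with 2 at an unadjusted p under 0.05. Fscn1, a gene of mature dendritic cells that other cells also express, made up between 22.4 and 26.5 TPM of the sum in IL-4 microglia. In single IL-4 microglia libraries Flt3, Cd209a, Ccl22 and Itgae reached 1.63, 3.45, 3.68 and 1.20 TPM, while each was at 0 in at least 1 other library of the group and Clec9a was at 0 in all 3. Cd209a and Ccl22 were at 0 in every PBS microglia library. Their part in the Ccr7 counts was not tested.

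Ccr3 (ENSMUSG00000035448.9, chromosome 9 from 124021972 to 124031689, plus strand), the eotaxin receptor of eosinophils, was close to the limit of detection. It had 0 counts in 8 of the 9 microglia libraries and 20 counts in IL-4 microglia of mouse 10, and was not tested within microglia. Macrophages had between 2 and 26 counts. The means were 13.5 ± 7.00 normalized counts with PBS, 18.3 ± 14.0 with IL-13 and 17.8 ± 3.38 with IL-4. These groups overlapped, and neither cytokine gave a call. Of 7 eosinophil markers, Epx was at 0 in all macrophage libraries, Prg2 at or below 1 count and Il5ra at or below 4. Siglecf, which other myeloid cells can also express, had between 167 and 494 counts, at 10.9 TPM on average with PBS, 5.04 with IL-13 and 3.88 with IL-4. Alox15 had up to 72 counts, Ear6 up to 12 (with IL-4) and Gata1 20 in a single IL-13 library. Siglecf and Alox15 were the only markers of the list tested in macrophages, and both were called lower with IL-4. The part of eosinophils in the Ccr3 counts was not tested. The eotaxin gene Ccl24, a ligand of Ccr3, was among the largest changes of the ligand list, at 157791 ± 90216 normalized counts in IL-4 macrophages and 419 ± 155 in PBS macrophages.

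Cxcr2 (ENSMUSG00000026180.8, chromosome 1 from 74153989 to 74161246, plus strand) encodes the main neutrophil receptor for Cxcl1, Cxcl2 and related chemokines. In macrophages, it had 768, 2193 and 1257 normalized counts with PBS, 933, 6218 and 1079.6 with IL-13 and 617, 2443 and 1207 with IL-4. The IL-13 library of mouse 6 was the highest, and the remaining ones overlapped. That library also held the most neutrophil marker RNA, 9176 TPM against 1385 and 1395 in the other IL-13 macrophages. In PBS macrophages, mouse 2 had both the most Cxcr2 and the most neutrophil markers, 4336 TPM. In IL-4 macrophages, mouse 9 had both, with 2349 TPM. Between groups, the marker sum was 3082 TPM on average with PBS, 3985 with IL-13 and 1342 with IL-4. With IL-4, 3 of 10 markers were called lower than with PBS. Cxcr2 was 1406 ± 724 normalized counts with PBS, 2744 ± 3009 with IL-13 and 1422 ± 932 with IL-4. Its log2 fold change with IL-4 against PBS was 0.06 (SE 0.73). The sort kept F4/80+ cells, and the study defined granulocytes as F4/80-. The macrophage libraries held between 606 and 9176 TPM of neutrophil markers. The part of neutrophil RNA in the Cxcr2 counts was not tested. In microglia, Cxcr2 was between 0 and 192 normalized counts, and 5 of the 9 libraries had 2 counts or fewer.

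Cxcr4 (ENSMUSG00000045382.6, chromosome 1 from 128588199 to 128592293, minus strand), the receptor for Cxcl12, gave no call with either cytokine. Macrophages had 2123, 1002 and 1228 normalized counts with PBS, 1912, 622 and 2376 with IL-13 and 1661, 410.3 and 1862 with IL-4. The spread within a group was larger than any difference between groups. In microglia, it was 71.3 ± 33.1 with PBS, 65.0 ± 52.8 with IL-13 and 118 ± 42.3 with IL-4. The IL-13 microglia of mouse 6 had only 4.27.

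Ccrl2 (ENSMUSG00000043953.12, chromosome 9 from 111054486 to 111057519, minus strand) encodes an atypical receptor that binds chemerin and presents it to cells with the receptor Cmklr1. In macrophages, it had 9893, 10146 and 9185 normalized counts with PBS, 1821, 3945 and 3268 with IL-13 and 2852, 3609 and 3551 with IL-4. All 6 cytokine libraries were below the 3 PBS libraries, and the cytokine groups overlapped. Ccrl2 was 2.82-fold lower with IL-4, a log2 fold change of -1.49 (SE 0.24, adjusted p = 0.00272), and 3.18-fold lower with IL-13, at -1.67 (SE 0.24, adjusted p = 0.00447). Both calls held when any single mouse was left out. IL-4 and IL-13 differed by 0.17 on the log2 scale (SE 0.23, adjusted p = 0.857).

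In microglia, Ccrl2 was at a lower level, with 802, 913 and 664 normalized counts with PBS, 285, 284 and 355 with IL-13 and 322, 629.9 and 593 with IL-4. Here too the cytokine libraries were below all PBS libraries. The log2 fold change was -1.35 with IL-13 (SE 0.32, adjusted p = 0.210) and -0.59 with IL-4 (SE 0.32, adjusted p = 0.415). DESeq2 called Ccrl2 with IL-13 (adjusted p = 0.0110), as did a single model of all 18 libraries (adjusted p = 0.0175). The responses in the cell types differed by 0.88 with IL-4 (SE 0.37, adjusted p = 0.328) and by 0.31 with IL-13 (SE 0.37, adjusted p = 1). Neither the chemerin gene Rarres2 nor Cmklr1 was DE with a cytokine in either cell type. Cmklr1 was between 119.6 and 175 normalized counts on average over the 6 groups.

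Ackr3 (ENSMUSG00000044337.5, chromosome 1 from 90203980 to 90216751, plus strand), an atypical receptor that takes up Cxcl12, lay below PBS in microglia and above PBS in macrophages with IL-4, and neither passed the test. PBS microglia had 1372, 1254 and 1395 normalized counts, IL-13 microglia 1288, 3771 and 1378, and IL-4 microglia 648, 326 and 622. The IL-4 microglia were below the 6 others. In macrophages, the values were 171, 387 and 215 with PBS, 238, 776 and 656 with IL-13 and 392, 762 and 757 with IL-4. There, each IL-4 library was above each PBS library. The log2 fold change with IL-4 was -1.30 in microglia (SE 0.42, adjusted p = 0.165) and 1.36 in macrophages (SE 0.45, adjusted p = 0.0754), and neither was DE by edgeR. The difference of -2.68 between these responses had an SE of 0.68 and an adjusted p of 0.0771. DESeq2 gave adjusted p-values of 0.0457, 0.0181 and 0.00629 for these 3 values. Without IL-13 mouse 5, edgeR called Ackr3 in IL-4 macrophages (adjusted p = 0.0348), and without mouse 5 or 6 it called the difference between the responses (as low as 0.0344). Fibroblast and pericyte markers in microglia libraries summed to between 67.6 and 462 TPM with IL-4 and between 1166 and 1734 with PBS, and 1 of the 10 was called lower. Of the PBS microglia, mouse 2 had the most of the markers and the least Ackr3. Of the IL-4 microglia, mouse 8 had the most of both, with 462 TPM of the markers and 648 normalized counts of Ackr3. Mouse 9 had 375 TPM and 326 normalized counts, and mouse 10 had 67.6 TPM and 622. The IL-13 microglia of mouse 6, with 3479 TPM of these markers, also had the most Ackr3, and the other IL-13 microglia had 554 and 699 TPM. Without mouse 6, the log2 fold change between IL-4 and IL-13 microglia was -1.31 instead of -1.97. The gate was set on CD45low CD11b+ F4/80+ cells, and the microglia libraries held the marker levels given above. The part of fibroblasts and pericytes in the Ackr3 counts was not tested. In macrophage libraries, the fibroblast and pericyte markers summed to at most 3.43 TPM. The 8 endothelial markers summed on average to 1602 TPM in PBS, 2640 in IL-13 and 2222 in IL-4 microglia libraries. In macrophage libraries they summed to at most 139 TPM. The part of endothelial cells in the Ackr3 counts was not tested either.

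Promoter sequence from RefSeq (GRCm38.p6) was at hand for 8 of the 9 members, Ccr7 being the one without, and 250 bases before the start were searched on both strands. The motifs were TTCNNNNGAA (the STAT6 type, the factor that IL-4 and IL-13 activate), TTCNNNGAA (other STAT factors), GAGGAA (PU.1), TTGCNNAA (C/EBP) and TGANTCA (AP-1), which may overlap each other. For Cx3cr1 all 250 bases of this window, and for Ccr2 233 of them, lie in annotated exons, because the RefSeq start is inside the gene. Over 32851 promoters, they were found in 5.85, 7.02, 23.3, 9.56 and 6.75%, in this order. TTCNNNNGAA and TTCNNNGAA were found in none of the 8. GAGGAA was found once each in Ccr1, Ccr3 and Cxcr2, TGANTCA once in Ccr3 and TTGCNNAA once in Ackr3, where it began 47 bases before the start. The windows of Ackr3 and Ccrl2 are shown because Ccrl2 was called lower in IL-4 macrophages while each IL-4 library there had more Ackr3 than the PBS libraries, at chr1:90203730-90203979 (plus strand) and chr9:111057520-111057768 (minus strand) of GRCm38. Capitals mark the TTGCNNAA match, and Ccrl2 had no match to any of the 5 motifs.
Ackr3: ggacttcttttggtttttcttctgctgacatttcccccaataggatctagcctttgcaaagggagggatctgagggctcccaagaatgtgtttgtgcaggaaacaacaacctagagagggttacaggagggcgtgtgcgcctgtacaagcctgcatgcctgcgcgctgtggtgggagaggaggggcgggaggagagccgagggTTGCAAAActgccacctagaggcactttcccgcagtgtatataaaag
Ccrl2: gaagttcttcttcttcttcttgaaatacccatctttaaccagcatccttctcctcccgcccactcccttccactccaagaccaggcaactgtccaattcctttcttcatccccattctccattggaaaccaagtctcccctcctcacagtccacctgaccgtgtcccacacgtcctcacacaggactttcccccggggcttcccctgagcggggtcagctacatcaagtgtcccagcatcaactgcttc
A match is a match of letters and was not tested as a binding site.

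Between the cell types, most of the members differed with each injection. With PBS, 8 of the 8 genes tested were DE between microglia and macrophages, where 40.9% of all 14715 genes were. Cx3cr1 and Ackr3 were higher in microglia, and Ccr1, Ccr2, Ccr7, Cxcr2, Cxcr4 and Ccrl2 were lower. Endothelial, fibroblast and pericyte markers were higher in the microglia libraries as well, and the part of such cells in the level of Ackr3 was not tested. Ccr7, with no count in PBS microglia, passed the filter on low counts through the macrophage libraries alone and had to differ, so the count of 8 is a description. With IL-13, 8 of 8 were DE in the same directions, where the share of all genes was 26.7%, and the same limit holds, since Ccr7 had 0, 0 and 4 counts in IL-13 microglia and Cxcr2 had 1, 2 and 70. With IL-4, 6 of 9 were DE, where the share was 23.4%. Cxcr2 is among them with 86, 2 and 0 counts in microglia, so this count too is a description. Cx3cr1 was higher there, Ccr1, Ccr2, Cxcr2, Cxcr4 and Ccrl2 were lower, and Ccr3, Ccr7 and Ackr3 gave no call. Some of these calls rested on single mice. With IL-13, the call of Ackr3 was lost without mouse 5, 6 or 7 (adjusted p up to 0.137), that of Cxcr4 without mouse 5 or 7 (up to 0.112), that of Ccr7 without mouse 5 (0.0785) and that of Cx3cr1 without mouse 7 (0.0732). With IL-4, Cxcr2 was lost without mouse 9 or 10 (up to 0.139) and Cxcr4 without mouse 8 (0.0663), and with PBS Cxcr2 was lost without mouse 3 (0.0721).

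The sizes of these differences ordered the receptors. With PBS, Ccrl2 was 12.8-fold lower in microglia, a log2 fold change of -3.68 (SE 0.15, adjusted p = 2.17e-06), and Ccr2 also 12.8-fold, at -3.68 (SE 0.39). Ccr1 was 5.50-fold lower (log2 fold change -2.46, SE 0.19). Cxcr4 and Cxcr2, both scarce in microglia, were lower by 21.2-fold and 20.1-fold. Cxcr4 was 25.6-fold lower with IL-13 and 11.4-fold lower with IL-4. For Cxcr2, the fitted values of 141-fold with IL-13 and 51.3-fold with IL-4 had an SE of 1.48 each on the log2 scale. Single mice moved some of these sizes by over 1.5 times. Without mouse 6, the log2 fold change of Ccr2 with IL-13 was -2.73 (all mice -3.42), without mouse 9 that of Ccr2 with IL-4 was -2.14 (all mice -2.76), and without mouse 2 that of Cxcr4 with PBS was -5.03 (all mice -4.41). The log2 fold change of Cxcr2 with PBS was -6.40 without mouse 2, against -4.33 with all mice. It was -10.84 without mouse 8 and -4.41 without mouse 9 with IL-4 (all mice -5.68), and -11.29 without mouse 7 and -5.19 without mouse 6 with IL-13 (all mice -7.14). Ccr1, Ccr2 and Ccrl2 were lower by 7.23-fold, 10.7-fold and 9.96-fold with IL-13 and by 5.01-fold, 6.77-fold and 6.67-fold with IL-4. Ccr7 was at least 25.4-fold lower in PBS microglia, by the limit that 0 counts allow. Cx3cr1 was 3.59-fold higher in microglia with PBS (log2 fold change 1.84, SE 0.31), 6.30-fold with IL-13 and 21.0-fold with IL-4 (4.39, SE 0.27, adjusted p = 6.3e-05). Ackr3 was 5.00-fold higher with PBS (2.32, SE 0.30), 3.75-fold with IL-13 (1.91, SE 0.56), and with IL-4 the difference was -0.31 (SE 0.39, adjusted p = 0.662). With PBS, 8 of 8 endothelial and 10 of 10 fibroblast and pericyte markers were also called higher in microglia libraries. Their median log2 fold changes were 6.50 and 8.88. Among the other members, Ccr7 in IL-4 microglia, at 459 ± 343 normalized counts, overlapped with IL-4 macrophages at 232 ± 95.6 (adjusted p = 0.354). Between IL-13 and IL-4, the difference between the cell types gave no call by edgeR for any of the 9, where 0.139% of all genes were called, 4 had an unadjusted p under 0.05, and DESeq2 called Ccr7 and Cx3cr1. For IL-13 against PBS the count was also 0 of 9 by edgeR and by DESeq2, and the share of all genes was 0.0242%, with 0 of the members at an unadjusted p under 0.05.

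**Figure D4:**
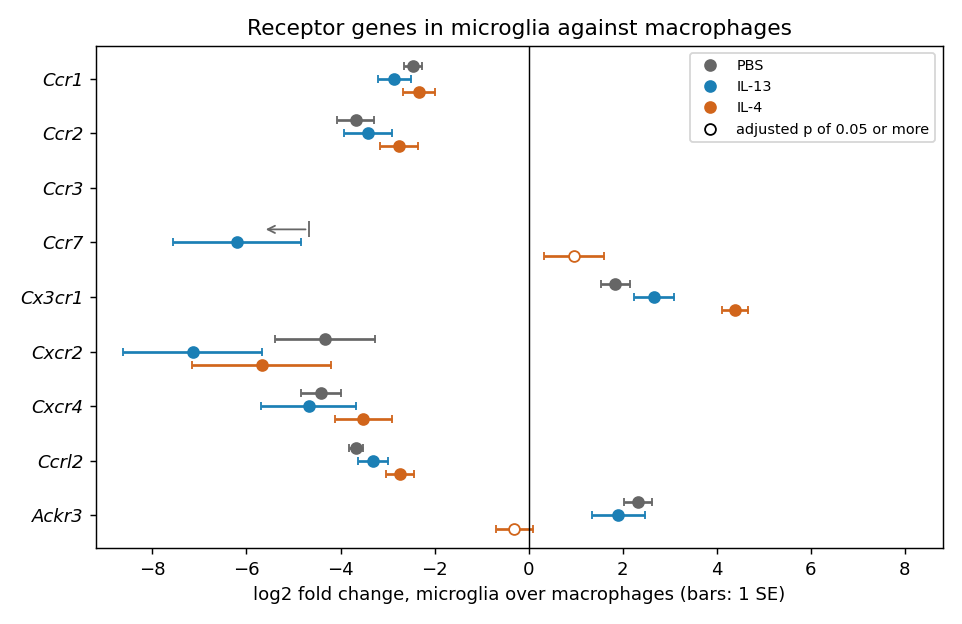
Log2 fold change of each receptor gene in microglia over macrophages for each injection, with bars of 1 SE; filled points are DE, the arrow for Ccr7 with PBS starts at the lower bound of 25.4-fold, and Ccr3 is not drawn. Cx3cr1 lay to the right of 0 with every injection and Ccr1, Ccr2, Cxcr2, Cxcr4 and Ccrl2 to the left. With IL-4, Ccr7 lay to the right at 0.96 (SE 0.64) and Ackr3 at -0.31 (SE 0.39), and neither was DE.

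Per length, the order of the receptors changed with the cytokines. In PBS microglia, Cx3cr1 led at 992 ± 305 TPM, followed by Ccr1 (72.1 ± 15.4), Ackr3 (29.2 ± 1.12) and Ccrl2 (22.3 ± 3.86), and each of these 4 was above the next in all libraries. Ccr2, Cxcr4 and Cxcr2, at 7.22, 2.89 and 1.77 TPM, overlapped their neighbours, and Ccr3 and Ccr7 were at 0. In IL-13 microglia, Cx3cr1 (444 ± 199.6 TPM) was again first, Ccr1 (84.5) overlapped Ackr3 (48.4), and Ccr2 (14.2) overlapped Ccrl2 (8.96). In IL-4 microglia, Cx3cr1 (189 ± 44.0 TPM) and Ccr1 (98.4 ± 35.7) were still first and did not overlap. Ccr2, Ccr7, Ccrl2 and Ackr3 followed between 13.9 and 9.24 TPM and each overlapped the next.

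In PBS macrophages, Ccr1 (322 ± 42.8 TPM) was first, and Ccrl2 (231 ± 13.6) overlapped Cx3cr1 (227 ± 77.7). Ccr2, Cxcr4 and Cxcr2 followed at 74.0, 50.0 and 28.1 TPM, with overlap between neighbours, and Ackr3, Ccr7 and Ccr3 were last at 4.70, 2.35 and 0.253 TPM. In IL-13 macrophages, Ccr1 (439 ± 173 TPM) was above all others, while the next 5, from Ccr2 at 108 to Cxcr2 at 49.1 TPM, overlapped in sequence. In IL-4 macrophages, Ccr1 (471 ± 189 TPM) led, Ccr2 (95.5) overlapped Ccrl2 (77.0 ± 6.79), and Cx3cr1 had moved to the seventh place at 8.86 ± 0.920 TPM, where it overlapped Ackr3 (11.3) and Ccr7 (7.15).

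For each member, the genes with the nearest pattern over the 18 libraries were found by the root mean square difference of centred log2(normalized count + 1), over 16535 genes. The nearest to Cx3cr1 were Fcrls (0.381), Hpgd (0.434) and Tmem119 (0.439), of which Fcrls and Tmem119 are on the microglia marker list. For Ccrl2, they were the immediate early genes Nr4a1 (0.511), Fos (0.514) and Dusp1 (0.559). Ccr1 was nearest to Cd44 (0.295), Adam8 (0.299) and Gpr35 (0.341), and Ccr2 to Napsa (0.453), Sirpb1c (0.455) and Nxpe5 (0.502). Cxcr4 was nearest to Tm4sf19 (0.915), Hpse (0.953) and Spsb4 (0.956), and Ackr3 to Zcchc24 (0.675), Ddit4 (0.676) and Chpf (0.685). Cxcr2 and Ccr7 had the largest distances. Cxcr2 was nearest to Rab44 (1.46), Acpp (1.88) and Gpr15 (1.88), Ccr7 to Gm15261 (1.48), Ryr1 (1.70) and Gm26811 (1.86), and Ccr3 to Gm36660 (0.638), F730311O21Rik (0.717) and Gm37289 (0.735). With a pseudocount of 5 in place of 1, the nearest were Gpr141, Rab44 and Hp for Cxcr2 and Gm36660, Tlr4 and Slc36a3 for Ccr3, so that 1 of 3 was kept for each. The difference between microglia and macrophages is shared by all these patterns, so that a small distance describes the libraries and not a common control.

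Among the chemokine ligands, Ccl24 and Ccl8 rose with both cytokines in both cell types. Of 23 ligand genes tested in microglia, 4 were higher and 1 lower with IL-4 against PBS, with a median log2 fold change of 0.51 against -0.06 over all genes. Ccl24 rose by 8.40 and Ccl8 by 6.35 on the log2 scale, while Ccl4, an inflammatory CC chemokine, fell by 1.43. With IL-13 in microglia, 3 were higher (Ccl24 by 6.44, Ccl8 by 5.00) and 2 lower, Ccl4 at -2.44 and Ccl3 at -2.36. In macrophages, 18 ligand genes were tested, of which 4 were higher and 2 lower with IL-4, and 4 higher and 0 lower with IL-13. The share of all genes DE against PBS was 2.22% with IL-4 and 0.366% with IL-13 in microglia. In macrophages it was 14% and 4.19%. With 1 mouse left out, the number of ligand calls in macrophages was 4 to 8 with IL-4, lowest without mouse 8 or 10, and 3 to 8 with IL-13, highest without mouse 6. In microglia it was 4 to 7 with IL-4, highest without mouse 6, and 2 to 5 with IL-13, lowest without mouse 1 or 3 and highest without mouse 8 or 9. Cxcl1, which binds Cxcr2, fell by 2.86 and Ccl3, which binds Ccr1, by 1.94 in IL-4 macrophages. Further ligands of the members were picked after their values were seen. Among them, Ccl6 and Ccl9, CC chemokines like Ccl3, rose by 2.73 and 2.15 in IL-4 macrophages. They rose by 2.31 and 2.27 in IL-13 macrophages and by 3.26 and 3.07 in IL-4 microglia. In IL-13 microglia, Ccl6 was called at 1.95 and Ccl9 was not called. Ccl6 was 154357 ± 12423 normalized counts in IL-4 macrophages, where Ccl3 was 1567 ± 419. The ligands of Ccr2, Ccl2, Ccl7 and Ccl12, were not DE with a cytokine in either cell type, and Ccl2 was 24410.4 ± 5461 normalized counts in PBS macrophages and 17826 ± 15021 with IL-4. In microglia libraries, the Ccr7 ligand Ccl19 was 194 ± 117 normalized counts with PBS, 213 ± 103 with IL-13 and 16.8 ± 14.6 with IL-4. Cxcl12, the ligand of Cxcr4 and Ackr3, was 8046 ± 1499 with PBS, 7629.8 ± 6703 with IL-13 and 2494 ± 781 with IL-4 in microglia libraries, and between 3.11 and 28.3 on average in macrophages. The fibroblast and pericyte markers were also lower in IL-4 microglia, at 67.6 to 462 TPM against 1166 to 1734 with PBS, and their part in the levels of Ccl19 and Cxcl12 was not tested. The Cx3cr1 ligand Cx3cl1 was 798 ± 289 normalized counts in PBS, 949 ± 144 in IL-13 and 315 ± 147 in IL-4 microglia libraries, and at most 9.08 on average in a macrophage group.

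Of the other receptors on the list of 18, 9 were tested in each cell type. In macrophages, Cxcr3, a receptor of T cells and some myeloid cells, was lower with IL-4, at -2.90 on the log2 scale, and with IL-13, at -2.00, and 0 were higher. This is 1 of 9 with each cytokine, where the share of all genes was 14% with IL-4 and 4.19% with IL-13. With IL-13, 0 genes of this list were called without mouse 1, 2, 3, 5, 6, 7 or 10, so that the call of Cxcr3 was lost there. In microglia, 0 of 9 were called by edgeR with either cytokine, and 2 with IL-4 and 1 with IL-13 had an unadjusted p under 0.05, where the shares of all genes were 16.4% and 7.76%.

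Genes that act below the receptors were called in macrophages. There, 14% of all genes were DE with IL-4 and 4.19% with IL-13. Of 18 signalling genes tested, 3 were higher and 4 lower with IL-4. Jak2, a kinase gene, rose by 2.56 and Gnb2, a G protein subunit gene, by 0.59 on the log2 scale, while Elmo1 fell by 1.17 and Gng2 by 1.11. With IL-13, Jak2 was higher at 1.84 and 3 genes were lower, Elmo1 at -0.76 and Gng2 at -0.73 among them. Of the 14 genes for desensitisation, which end receptor signalling, 1 was higher and 7 lower with IL-4 in macrophages. Grk6, a receptor kinase gene, rose by 0.71, and Rgs16 and Rgs1, which speed the return of G proteins to the resting state, fell by 3.46 and 1.45. With IL-13, 3 were lower, Rgs16 at -4.37 and Rgs1 at -2.02 among them. With 1 mouse left out, signalling calls in macrophages numbered 4 to 8 with IL-4, fewest without mouse 1, 2, 3 or 10 and most without mouse 6, and 1 to 5 with IL-13, fewest without mouse 1, 3, 5, 7 or 10. Desensitisation calls numbered 5 to 9 with IL-4, fewest without mouse 8 or 10, and 2 to 4 with IL-13, fewest without mouse 1, 2, 3 or 7. The median over the desensitisation genes was -0.42 with IL-4 and -0.41 with IL-13, against at most 0.02 over all genes. In microglia, 0 of 20 signalling and 0 of 14 desensitisation genes were called by edgeR with either cytokine. Of the signalling genes, 5 with IL-4 and 4 with IL-13 had an unadjusted p under 0.05 there, and of the desensitisation genes 1 with each, where the share of all genes was 16.4% with IL-4 and 7.76% with IL-13. Between IL-4 and IL-13, 0 genes of the 4 lists were called by edgeR in either cell type. At an unadjusted p under 0.05, there were 10 of 23 ligands, 2 of 9 receptors, 1 of 20 signalling and 1 of 14 desensitisation genes in microglia. In macrophages, there were 1 of 18 ligands, 0 of 9 receptors, 5 of 18 signalling and 6 of 14 desensitisation genes. Over all genes, the share at this unadjusted p was 11.4% in microglia and 11.1% in macrophages.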

How the data were processed

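RNA from 18 sorted libraries (9 mice, microglia and macrophages of each) was sequenced after SMART-seq2, without molecular identifiers or strand. The deposited values are estimated counts per gene, which the authors made with RSEM 1.3.0 after STAR 2.5.3a on GRCm38, as the submitters' processing notes name them. The annotation release is not given in the sources used here.

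Expected counts were rounded to whole numbers and tested with edgeR 4.0.16 (R 4.3.3) by its quasi-likelihood test, with filterByExpr, TMM and Benjamini-Hochberg adjustment over all genes tested. Treatments were compared on the 9 libraries of a cell type, cell types on the 6 libraries of an injection, and the difference between cell types on all 18. SE is the log2 fold change over the root of F. Normalized counts use DESeq2 1.42.0 size factors. TPM was computed from exon union lengths (GENCODE vM21), leaving out 105 genes without a length. Scripts were tested on simulated data. Alternatives were other filters and size factors, DESeq2's Wald test, other sets of libraries, the mouse as a block and leaving out each mouse.

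Replicates are separate mice, and both libraries of a mouse come from the same animal. Their deviations from the group means correlated between 0.0117 and 0.0873 over 16535 genes. Bounds from 0 counts cover counting error only, at 3 counts per library. All members are named. For each, the 3 genes with the smallest distance are named, and of each pathway list up to 2 called genes in each direction with the largest change. The members, gene lists and tests were chosen with earlier results of these data known.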

Additional observations from a re-analysis of the deposited data

Results flagged for a closer look

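For 2 receptor genes, the response to IL-4 against PBS was not the same size in the cell types, by edgeR's test of the difference itself, in the fit of all mice. For Cx3cr1, the log2 fold change was higher in microglia by 2.49 (SE 0.53, adjusted p = 0.0374), since it fell by 2.07 in microglia and by 4.58 in macrophages. With 1 mouse left out, it was called in 2 of 9 fits, with adjusted p up to 0.191. For Ccr7, the fitted difference was 10.18 (SE 1.72, adjusted p = 0.0144), and both size and test rest on the 3 PBS microglia libraries, which hold 0 counts of Ccr7, so that the size depends on the prior count. It was 9.35 without mouse 10, and with 1 mouse left out it was called in 6 of 9 fits, with adjusted p up to 0.104.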

How the results depend on the processing

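Of 300 fits of a receptor gene with 1 mouse left out, 262 kept their direction and their side of the threshold, 35 lost a call, 3 gained one and 0 changed sign. Under the other alternatives, 257 of 271 stayed the same, 14 gained a call and 0 changed sign. The cause of these shifts was not tested. With at least 10 counts required in every library, receptor calls numbered 1 for IL-4 against PBS in microglia (Cx3cr1), 5 between cell types with IL-13 and 1 for the difference between cell types in IL-4 against PBS (Cx3cr1), and Ccr7 was no longer among the genes tested. With DESeq2, they numbered 3 for IL-4 against PBS in microglia and 3 for the difference between cell types in IL-4 against PBS (Ackr3 added to both), 1 for IL-13 against PBS in microglia, 2 for IL-4 against IL-13 in microglia, 4 for IL-4 against PBS in macrophages and 2 for the difference between cell types in IL-4 against IL-13. With all 18 libraries in 1 model, they numbered 1 for IL-13 against PBS and 1 for IL-4 against IL-13 in microglia. For IL-4 against PBS in macrophages, there were 4 with all genes that have any count and 3 with only the 6 libraries compared (Ackr3 added, adjusted p = 0.0409). With 1 mouse left out, the counts were 0 to 2 for IL-4 against PBS in microglia, 2 to 3 for the same in macrophages, 0 to 1 for IL-4 against IL-13 in macrophages, and 0 to 3 for the difference between cell types in IL-4 against PBS. Between cell types they were 7 to 9 with PBS, 5 with IL-4 and 5 to 7 with IL-13. With the mouse as a replicate block, the count of receptor calls was 8, 6 and 8 between cell types with PBS, IL-4 and IL-13, and 2, 0 and 0 for the differences between cell types, so the pairing changed no call.

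Over all genes, DESeq2 called 1215 instead of 345 for IL-4 against PBS in microglia, 322 instead of 57 for IL-13 against PBS and 557 instead of 6 for IL-4 against IL-13. In macrophages, it called 2660, 1163 and 420 instead of 1900, 570 and 34, and for the differences between cell types 689, 154 and 300 instead of 164, 4 and 23. With 1 mouse left out, edgeR called 75 to 409, 22 to 56 and 0 to 15 genes in microglia, 1041 to 2261, 199 to 677 and 1 to 60 in macrophages, and 18 to 243, 0 to 6 and 2 to 28 for the differences between cell types, in the same order, and 4354 to 5213, 1798 to 2548 and 1197 to 3606 between cell types with PBS, IL-4 and IL-13 (6014, 3174 and 3710 with all mice), so the shares of all genes move with single mice as well. For Ccr3, Ccr7 and Cxcr2 in microglia, counts at or near 0 in several libraries limit the precision.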
